A study of Arabidopsis thaliana with 6 samples.

Results

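The genes described here are 59 ethylene response factor (ERF) and dehydration-responsive element binding (DREB) genes of Arabidopsis thaliana, taken by locus identifier from a leaf transcriptome table of 21981 genes. Of the 59, 58 were in the table, and AT1G19210 was not analysed here. The genes fall into 14 ERFs of the ethylene response activator type, 7 of the ABR1 type, 8 repressors that carry an EAR motif, 5 hypoxia-related ERFs, 6 cytokinin response factors (CRFs) and 19 DREBs. The CBF1 to CBF3 genes and DEWAX are not among them. The reference annotation assigns RRTF1, grouped here with the ABR1 type, to the subfamily of the ethylene response activators. Below, an activator gene is a member of that group, and whether each member activates its targets was not tested.

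Leaves were compared between 3 transgenic samples, titled as lines 1, 2 and 3, and 3 wild-type (WT) samples, all of the Col-0 accession and 4 weeks old. The labels name neither the transgene nor its promoter, and the series title places the study in endoreplication and trichome branching. Plants of both groups grew under 16 h of light and 8 h of darkness, and the protocol refers to drought treatments in the same words for every sample, so from the labels a difference in watering cannot be told apart from the genotype. Each line is 1 sample, and nothing says that the WT samples came from separate plants, so the p-values rest on a spread between samples that may be technical only.

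ERF and DREB proteins are plant transcription factors that bind DNA through a single AP2/ERF domain. Ethylene signalling stabilises the factors EIN3 and EIL1, which switch on ERF genes whose products bind the GCC box of defence genes, while DREB proteins bind the dehydration-responsive element (DRE) in front of drought and cold genes. ERFs with an EAR motif recruit corepressors such as TOPLESS and lower the activity of their targets. The hypoxia-related ERFs are broken down in the presence of oxygen through a cysteine at their N-terminus and persist when oxygen is short. CRFs act in cytokinin responses and in the development of cotyledons, leaves and embryos.

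Values were FPKM, fragments counted per kilobase of transcript and scaled to library size, as deposited by the authors. They summed to 1278449, 1261802 and 1272266 over all genes in the transgenic samples, against 976844, 970376 and 982620 in the WT samples, so the scale differed between the groups and other scalings were compared: quantile normalization and cyclic loess, which align the distributions of the samples, median-of-ratios factors, 1 per sample, and TPM, which gives every sample the same total. The number of reads is unknown. A fold change is the difference of mean log2(FPKM + 1), transgenic over WT, a scale on which changes of weakly expressed genes come out too small, and its standard error (SE) and p come from limma, fitted over the 17093 genes whose mean reached 1 FPKM. A gene was called higher or lower at a Benjamini-Hochberg adjusted p under 0.05. The summed level of 4 leaf markers was 32345 to 33363 FPKM in the transgenic samples, against 20132 to 20606 FPKM in the WT samples, and all 4 were called higher, although with quantile normalization 2 were higher and 1 lower. Summed floral markers lay between 1.55 and 5.95 FPKM in the transgenic samples, against 4.22 and 5.38 FPKM in the WT samples, and root hair and seed markers summed to at most 0.410 FPKM in any sample. In bulk leaf samples, more cells of a type and more RNA per cell cannot be told apart, nor can fewer cells and less RNA per cell, and the part of the leaf markers' rise in the results was not tested.

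Among the 54 genes of the family with enough signal to be tested, 25 rose and 11 fell in the transgenic samples. Calls went in both directions within the activators, the ABR1 type, the EAR repressors and the DREBs, but not within the hypoxia-related ERFs or the CRFs. TDR1 of the activator group and the repressor genes ERF8 and ERF9 were among the greatest rises. AT5G07580 and ERF104, also of the activator group, were among the greatest falls. The EAR repressors rose in 6 of 8 cases, whereas none of the 4 hypoxia-related ERFs tested was called higher. Of the 54 family genes, 46.3% were called higher and 20.4% lower, against 25.0% and 15.7% of all 17093 genes tested, of which 40.7% were called in either direction. A change of at least 2-fold was called higher for 10 family genes, against 4.19% of all genes, and lower for 6, against 3.28% of all genes. The groups did not overlap for 40 of the 54, with the transgenic samples higher for 28 and lower for 12, against 52.2% of all genes (30.2% higher and 22.0% lower). The median fold change was 0.43 over the family genes and 0.03 over all genes on the log2 scale, and the median absolute fold change was 0.72 against 0.27. By subfamily, the median fold change was 0.46 for the activators, 0.92 for the ABR1 type, 0.91 for the EAR repressors, -0.25 for the hypoxia-related ERFs, 0.17 for the CRFs and 0.35 for the DREBs.

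**Figure D1:**
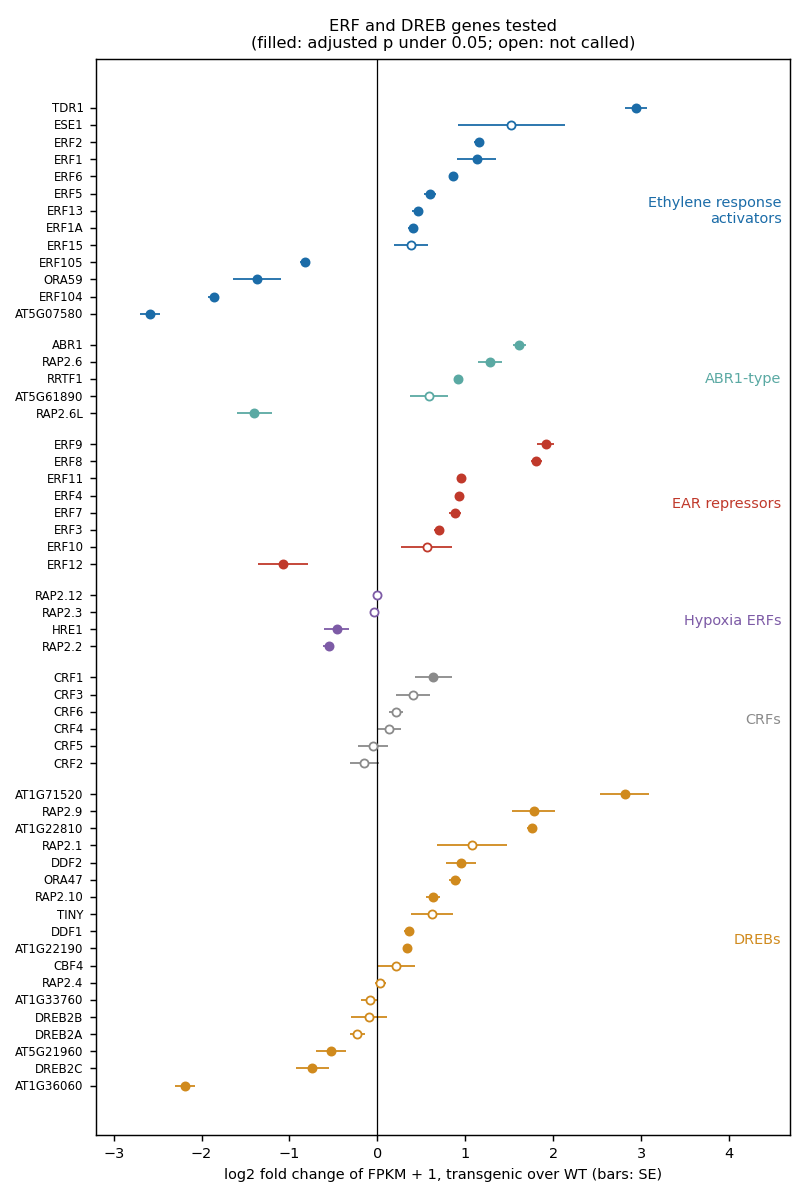
Fold changes on the log2(FPKM + 1) scale, transgenic over WT (3 samples each), for the 54 ERF and DREB genes tested, ordered within 6 subfamilies (bars, SE; filled points, adjusted p under 0.05). The values run from -2.58 for AT5G07580 to 2.94 for TDR1, and 6 of the 8 EAR repressors are filled points to the right of 0, while RAP2.12, RAP2.4, DDF1, AT1G22190, CRF4, CRF5, CRF6, CBF4 and DREB2B change sign under at least 1 other scaling.

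The 250 bases before the annotated start of the genes with the greatest changes are shown because elements bound by these and other stress factors commonly lie there. They are read from the TAIR10.1 reference on the strand of the gene, 5′ to 3′. Capitals mark any of 5 short motifs on either strand: the GCC box GCCGCC, the DRE core CCGAC, the ABRE core ACGTG bound by factors of the abscisic acid response, the W box core TTGAC bound by WRKY factors, and the rapid stress element core CGCGTT. TDR1, AT1G71520 and ERF9 had the greatest rises and AT1G36060 and ERF104 the next greatest falls after AT5G07580. AT5G07580 is annotated from its start codon, so its window is not shown. It is kept in the motif counts below, where it holds none of the 5 motifs.
TDR1: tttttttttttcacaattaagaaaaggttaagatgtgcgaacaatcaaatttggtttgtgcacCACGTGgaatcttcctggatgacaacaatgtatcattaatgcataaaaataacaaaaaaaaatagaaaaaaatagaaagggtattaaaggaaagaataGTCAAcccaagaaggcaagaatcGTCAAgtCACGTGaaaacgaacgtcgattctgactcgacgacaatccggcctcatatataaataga
AT1G71520: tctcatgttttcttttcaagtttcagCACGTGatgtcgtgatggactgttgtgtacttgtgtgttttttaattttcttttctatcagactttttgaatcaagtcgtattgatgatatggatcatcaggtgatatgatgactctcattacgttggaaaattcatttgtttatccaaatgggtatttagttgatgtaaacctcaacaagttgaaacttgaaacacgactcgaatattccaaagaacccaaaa
ERF9: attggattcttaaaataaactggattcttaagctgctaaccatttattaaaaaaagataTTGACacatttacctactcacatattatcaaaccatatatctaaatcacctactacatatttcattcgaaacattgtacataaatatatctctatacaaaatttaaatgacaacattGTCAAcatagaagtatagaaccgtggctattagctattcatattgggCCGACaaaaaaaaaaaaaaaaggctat
AT1G36060: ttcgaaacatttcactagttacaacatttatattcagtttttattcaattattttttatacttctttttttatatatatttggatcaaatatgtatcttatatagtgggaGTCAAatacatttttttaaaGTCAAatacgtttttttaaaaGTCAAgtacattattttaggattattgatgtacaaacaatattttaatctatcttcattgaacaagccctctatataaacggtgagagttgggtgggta
ERF104: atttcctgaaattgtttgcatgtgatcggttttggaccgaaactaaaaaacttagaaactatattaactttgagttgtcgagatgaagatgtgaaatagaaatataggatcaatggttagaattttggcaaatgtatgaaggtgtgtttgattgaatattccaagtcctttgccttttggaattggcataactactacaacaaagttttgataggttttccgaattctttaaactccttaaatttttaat
The windows lie at chr3:8290165-8290414, minus strand (TDR1), chr1:26938119-26938368, plus strand (AT1G71520), chr5:17806147-17806396, plus strand (ERF9), chr1:13456337-13456586, minus strand (AT1G36060) and chr5:24767733-24767982, minus strand (ERF104).

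The TDR1 window holds the palindrome CACGTG, which reads as an ABRE core on both strands, 187 and 59 bases before the annotated start, and 2 W box cores 89 and 66 bases before it. In AT1G71520 the same palindrome lies 224 bases before the start. The ERF9 window has a DRE core 27 bases before the start and W box cores at 191 and 74 bases. AT1G36060 holds 3 W box cores, at 140, 120 and 99 bases, and the ERF104 window holds none of the 5 motifs. Across the family, the ABRE core was in 25 of all 59 windows, called or not, against 22.9% of 27443 gene windows of the same length. It was in 11 of the 25 genes called higher and 4 of the 11 called lower. The DRE core was in 6 of 25, 1 of 11 and 7 of all 59, against 3285 of the 27443 windows. The W box core was in 13 of 25, 4 of 11 and 24 of 59 (44.9% of all windows). The GCC box was in 2 of 25 (ABR1 and ERF11), 1 of 11 (ORA59) and 5 of 59, against 1.87% of all windows. The rapid stress element core was in 1 of 25, 0 of 11 and 3 of 59 (2.59%). ABRE and W box cores do not overlap each other in the TDR1 window, and a match describes letters only.

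The ethylene response activators split by gene: of 13 tested, 7 rose and 4 fell. TDR1, an activator of ascorbate synthesis genes, had 114, 117 and 116 FPKM in transgenic lines 1, 2 and 3, against 18.0, 12.1 and 13.1 FPKM in WT replicates 1, 2 and 3. Its mean was thus 8.02 times the WT mean, with no overlap (log2 fold change 2.94 ± 0.12 SE, adjusted p = 2.28e-07). ERF2, an activator of GCC-box genes in jasmonate and ethylene responses, had 173, 177 and 176 FPKM in transgenic leaves, against 76.4, 74.7 and 83.9 FPKM in WT leaves (log2 fold change 1.16 ± 0.056 SE, adjusted p = 4.69e-07). ERF1, a direct EIN3 target that combines ethylene and jasmonate signals, was low in both groups, with 11.7, 10.5 and 15.6 FPKM in transgenic samples and 7.60, 3.77 and 4.695 FPKM in WT samples (1.13 ± 0.22, adjusted p = 0.00303). All 3 transgenic samples lay above all WT samples for both ERF1 and ERF2.

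AT5G07580 had 10.5, 8.49 and 7.94 FPKM in the transgenic lines, against 64.4, 53.3 and 58.3 FPKM in WT. Its fold change of -2.58 ± 0.11 (SE) was the lowest in the family (adjusted p = 2.71e-07). ERF104, a factor of the flagellin response that the kinase MPK6 phosphorylates, had 34.8, 36.0 and 38.8 FPKM in the transgenic lines, against 130.3, 139 and 138 FPKM in WT, a fold change of -1.86 ± 0.061 (SE, adjusted p = 6.57e-08). For both genes the highest transgenic value was far below the lowest WT value. ORA59, which joins jasmonate and ethylene signals at defensin genes, had 3.23, 0.939 and 1.21 FPKM in transgenic samples, against 5.53, 5.44 and 6.46 FPKM in WT samples (-1.37 ± 0.27, adjusted p = 0.00327). Line 1 was the highest of the 3 transgenic samples for ORA59 and still below WT. ERF105, linked to freezing tolerance, averaged 96.2 ± 4.83 FPKM in transgenic leaves and 170.9 ± 7.43 FPKM in WT leaves (SD, n = 3 each), a fold change of -0.82.

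The remaining activator genes that rose did so by less than 2-fold. ERF6 and ERF5, close relatives that act in the arrest of leaf growth under stress, rose by 0.86 ± 0.043 and 0.60 ± 0.069 (log2 fold change ± SE). ERF6 was the most abundant of the activator genes, with 427 ± 9.01 FPKM in transgenic leaves and 235 ± 7.68 FPKM in WT leaves (SD, n = 3 each). ERF13 rose by 0.46 and ERF1A by 0.41, but with quantile normalization these were 0.10 and 0.03 and neither passed the test. ERF15 was not called (0.38 ± 0.19). ESE1, a salt tolerance gene downstream of EIN3, had 0.235, 4.43 and 7.04 FPKM in transgenic samples, against 0.188, 0 and 0.915 FPKM in WT samples. The groups overlapped because line 1 was as low as WT, and the fold change of 1.52 ± 0.61 was not called (adjusted p = 0.0766). Without line 1 it was called, at 2.33 (adjusted p = 6.79e-04). ERF14 was at 0 except in line 2 (1.63 FPKM) and was below the limit for testing.

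Related activator genes thus shifted against each other. The ratio of ERF6 to ERF104, taken within each sample so that a sample's scaling factor cancels, was 12.3, 11.6 and 11.2 in the transgenic lines, against 1.78, 1.66 and 1.77 in WT. The ratio of ERF5 to ERF104 was 2.05, 1.93 and 1.63 in the transgenic lines, against 0.355, 0.327 and 0.306 in WT. ERF5 was thus the less abundant of the pair per length in WT leaves and the more abundant in transgenic leaves. Neither ratio overlapped between the groups. That was fixed by the separate values, since ERF5 and ERF6 rose and ERF104 fell without overlap. The ratios thus give the size of the shift and no separate support for it.

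**Figure D2:**
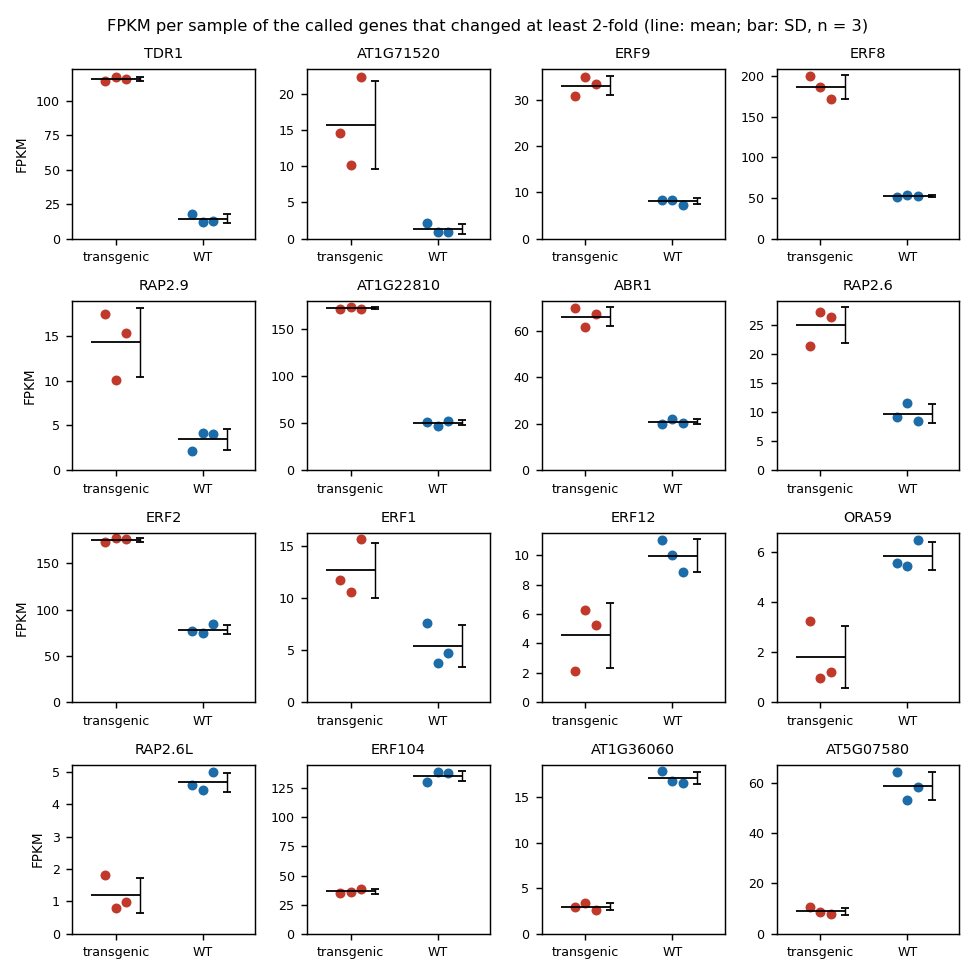
FPKM in each of the 3 transgenic and 3 WT samples (points; line, mean; bar, SD) for the 16 genes that were called with a change of at least 2-fold, 1 panel per gene with its own axis from 0. The 10 rises and the 6 falls show no overlap between the groups, although the transgenic samples of some genes differ among themselves, such as ORA59 (0.939 to 3.23 FPKM), ERF12 (2.08 to 6.28 FPKM) and AT1G71520 (10.2 to 22.4 FPKM).

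ERFs of the ABR1 type rose in 3 of 5 tested cases and fell in 1. ABR1, which lowers abscisic acid responses, had 69.7, 61.5 and 67.1 FPKM in transgenic samples, against 20.1, 22.2 and 20.4 FPKM in WT samples (log2 fold change 1.61 ± 0.074 SE, adjusted p = 3.60e-07). RAP2.6, a gene of jasmonate and abscisic acid responses, had 21.4, 27.2 and 26.3 FPKM in transgenic samples, against 9.13, 11.5 and 8.46 FPKM in WT samples (1.282 ± 0.13, adjusted p = 5.81e-05). Its relative RAP2.6L, which acts in wound healing and shoot regeneration, went the other way, with 1.81, 0.794 and 0.979 FPKM in transgenic samples, against 4.61, 4.44 and 5.02 FPKM in WT samples (-1.40 ± 0.20, adjusted p = 4.36e-04). The groups were apart for all 3 genes. RRTF1, a redox-responsive regulator of reactive oxygen, was the most abundant gene of this type, with 567 ± 6.497 FPKM in transgenic leaves and 299 ± 9.78 FPKM in WT leaves (SD, n = 3 each), a rise of 0.92. AT5G61890 was not called (0.59 ± 0.22), although its groups did not overlap. It passed in 4 alternatives, among them quantile normalization (0.79) and cyclic loess (0.78). ERF115, a regulator of stem cell renewal after damage, reached 0.412 FPKM at most, and ERF110 was listed at 0 in all 6 samples.

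The EAR repressors had the highest share of rises among the 6 subfamilies, with 6 of 8 called higher (75.0%) and 1 lower. ERF9, a repressor of defence genes, had 30.8, 35.0 and 33.6 FPKM in transgenic leaves, against 8.46, 8.43 and 7.31 FPKM in WT leaves (log2 fold change 1.91 ± 0.093 SE, adjusted p = 4.73e-07). ERF8, a regulator of senescence and cell death, had 200.3, 187 and 171 FPKM in transgenic leaves, against 51.1, 53.6 and 52.2 FPKM in WT leaves (1.81 ± 0.065, adjusted p = 9.71e-08). The means were 4.11 and 3.56 times those of WT, and every transgenic sample lay above every WT sample. ERF11, which lowers ethylene synthesis genes, ERF4, the most abundant repressor, ERF7, which acts in abscisic acid responses, and ERF3 rose by 0.95, 0.93, 0.88 and 0.70 on the log2 scale. ERF4 averaged 728 ± 23.4 FPKM in transgenic leaves and 381 ± 18.5 FPKM in WT leaves (SD, n = 3 each). These 6 genes stayed called higher in all 15 alternative settings tried.

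ERF12, an EAR repressor of flower development, fell, with 2.08, 6.28 and 5.24 FPKM in transgenic samples, against 11.1, 10.02 and 8.83 FPKM in WT samples (-1.07 ± 0.28, adjusted p = 0.0140). Line 1 was the lowest, and the call was lost without a filter on low values and without WT replicate 1 (largest adjusted p over all alternatives 0.0766). ERF12 lies beside ERF11 on chromosome 1, on opposite strands and with a gap of 2668 bases and no annotated gene between them. The ratio of ERF11 to ERF12 was 155, 47.9 and 65.1 in the transgenic lines, against 14.8, 16.7 and 18.7 in WT. Its separation follows from the rise of ERF11 and the fall of ERF12, each without overlap, and is no further support. ERF10 had 2.89, 0.786 and 1.69 FPKM in transgenic samples, against 0.830, 0.626 and 0.959 FPKM in WT samples, and was not called (0.56 ± 0.29), although it passed without line 2.

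Summed over the 8 genes, EAR repressors reached 1551, 1474 and 1535 FPKM in the transgenic samples, against 787, 758 and 738 FPKM in the WT samples. The 14 activator genes summed to 1469.9, 1428 and 1491 FPKM in the transgenic samples, against 1116, 1113 and 1163 FPKM in the WT samples. The ratio of the repressor sum to the activator sum was 1.06, 1.03 and 1.03 in the transgenic samples, against 0.705, 0.681 and 0.634 in the WT samples. A sample's scaling factor cancels in this ratio, which did not overlap between the groups and was not tested. Its size depends on the grouping, because the activator sum leaves out RRTF1, at a mean of 567 FPKM in transgenic and 299 FPKM in WT leaves. A ratio with RRTF1 among the activators was not computed. ERF4 alone made up 728 FPKM of the repressor sum in transgenic leaves and 381 FPKM in WT leaves (means). ABR1-type genes summed to 662 ± 9.27 FPKM in transgenic leaves and 336 ± 12.3 FPKM in WT leaves, and DREBs to 1186 ± 24.3 FPKM in transgenic leaves and 842 ± 9.65 FPKM in WT leaves (SD, n = 3 each).

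**Figure D3:**
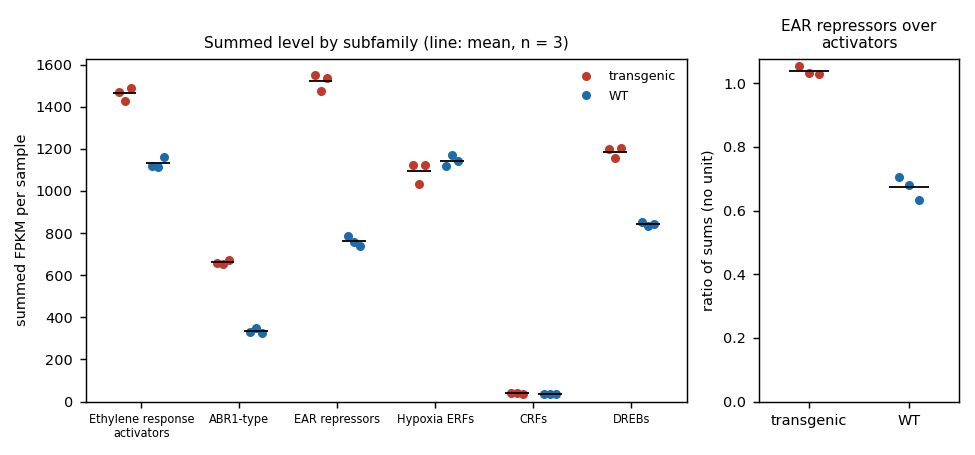
Left, summed FPKM of each subfamily in every sample (points; line, mean of 3); right, the ratio of the EAR repressor sum to the ethylene response activator sum. The repressor sums are 1474 to 1551 FPKM in transgenic samples and 738 to 787 FPKM in WT samples, while the hypoxia-related sums overlap (1035 to 1124 FPKM in transgenic samples, 1116 to 1170 FPKM in WT samples).

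The hypoxia-related ERFs are shown by the first 24 coding bases in TAIR10.1, 5′ to 3′ on the coding strand, because the second codon, in capitals, sets the oxygen-sensitive cysteine.
RAP2.2: atgTGTggaggagctataatctcc
RAP2.12: atgTGTggaggagctataatatcc
RAP2.3: atgTGTggcggtgctattatttcc
HRE1 (1 of 3 proteins): atgTCTcaaagctttgaactttat
HRE1 (2 of 3 proteins): atgTGCggaggagctgtaatttcc
HRE2: atgTGTgggggagctatcatttct
These stretches lie at RAP2.2 chr3:4738977-4739000, minus strand, RAP2.12 chr1:20135242-20135265, plus strand, RAP2.3 chr3:5705784-5705807, plus strand, HRE1 chr1:27242142-27242165, plus strand and chr1:27241904-27241927, plus strand, and HRE2 chr2:19503467-19503490, minus strand. The codons TGT and TGC encode cysteine, so 4 genes and 2 of the 3 annotated HRE1 proteins start with methionine and cysteine, while the other HRE1 start has TCT, a serine codon.

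None of the 4 hypoxia-related ERFs tested rose. RAP2.2 had 48.0, 47.3 and 44.4 FPKM in transgenic samples, against 72.0, 66.9 and 67.4 FPKM in WT samples, and fell with no overlap (-0.55 ± 0.062 SE, adjusted p = 9.61e-05). RAP2.12 had 92.3, 92.3 and 91.8 FPKM in transgenic samples, against 92.8, 95.3 and 88.3 FPKM in WT samples, which overlap (log2 fold change 0.0003 ± 0.051). RAP2.3, the most abundant gene of the whole family, had 978, 890.0 and 983 FPKM in transgenic samples, against 947, 1003 and 980.0 FPKM in WT samples (-0.04 ± 0.047). With quantile normalization RAP2.12 and RAP2.3 were called lower (-0.27 and -0.42), and RAP2.12 shares 399 identical bases with AT1G53887, so reads could be split between them. HRE1, a gene induced by low oxygen, had 3.58, 3.10 and 2.96 FPKM in transgenic samples, against 4.29, 5.38 and 4.76 FPKM in WT samples (-0.46 ± 0.14, adjusted p = 0.0280). That call was lost in 7 of 14 alternatives, 4 of which leave out WT replicate 2, WT replicate 3, line 2 or line 3. HRE2 was below the limit for testing, with 0.353, 2.099 and 1.44 FPKM in transgenic samples, against 0.337, 0 and 0.181 FPKM in WT samples. Its transgenic samples thus all lay above WT, line 1 only barely, unlike the genes tested.

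CRFs were low and mostly not called. CRF1 had 2.80, 2.08 and 1.82 FPKM in transgenic leaves, against 1.31, 0.718 and 1.2004 FPKM in WT leaves (0.64 ± 0.21, adjusted p = 0.0359). It was the only CRF called, and the call was lost under TPM and when any WT replicate, line 1 or line 2 was left out. CRF2, CRF3, CRF4, CRF5 and CRF6 had fold changes between -0.15 and 0.41. CRF6, a gene of senescence and oxidative stress and the most abundant CRF, averaged 19.4 ± 1.285 FPKM in transgenic leaves and 16.6 ± 0.142 FPKM in WT leaves (SD, n = 3 each; log2 fold change 0.21, adjusted p = 0.0653). The 1 of 6 CRFs called higher, 16.7%, compares with 25.0% of all genes, and so few genes cannot tell these shares apart.

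Of 18 DREBs tested, 8 rose and 3 fell, and the rises lay mainly in clade A-5, with 5 of 7 called higher. AT1G71520 had 14.7, 10.2 and 22.4 FPKM in transgenic samples, against 2.11, 0.979 and 0.917 FPKM in WT samples (log2 fold change 2.81 ± 0.28 SE, adjusted p = 4.50e-05). RAP2.9 had 17.4, 10.02 and 15.4 FPKM in transgenic samples, against 2.118, 4.22 and 4.05 FPKM in WT samples (1.78 ± 0.24, adjusted p = 3.46e-04). AT1G22810 had 171, 173 and 171 FPKM in transgenic samples, against 50.9, 47.1 and 52.4 FPKM in WT samples (1.76 ± 0.056, adjusted p = 5.43e-08). The groups were apart for all 3, most tightly for AT1G22810. ORA47, a regulator of jasmonate and abscisic acid synthesis, and RAP2.10 rose by 0.88 and 0.63. AT5G21960 of the same clade fell by 0.53 (adjusted p = 0.0308), a call lost without WT replicate 2, WT replicate 3 or line 3. RAP2.1, a DREB repressor, was not called (1.07 ± 0.40), with 11.5, 6.22 and 10.7 FPKM in transgenic samples, against 6.57, 1.39 and 5.22 FPKM in WT samples, and it passed without line 2 or without WT replicate 1.

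In clade A-6, AT1G36060 had 2.89, 3.39 and 2.67 FPKM in transgenic samples, against 17.9, 16.9 and 16.6 FPKM in WT samples, a fall of 2.19 ± 0.11 SE on the log2 scale (adjusted p = 6.85e-07). Its relative AT1G22190 was much more abundant, with 294 ± 9.82 FPKM in transgenic leaves and 233 ± 7.57 FPKM in WT leaves (SD, n = 3 each), and its call as higher (0.33) turned to -0.04 with quantile normalization and under TPM. RAP2.4, which acts in light and ethylene responses, averaged 108 ± 6.84 FPKM in transgenic leaves and 105 ± 5.42 FPKM in WT leaves and was not called (0.03), although quantile normalization gave -0.25 with a call.

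In the drought-related clade A-2, none of 3 rose. DREB2A, the main activator of drought and heat genes in this clade, had 22.5, 21.1 and 23.8 FPKM in transgenic samples, against 28.6, 26.6 and 24.5 FPKM in WT samples. The groups did not overlap, but the fold change of -0.23 ± 0.085 was not called (adjusted p = 0.0572). DREB2A was called lower under 6 of 15 alternatives, which include every other scaling. These gave -0.34 with quantile normalization, -0.34 with cyclic loess, -0.29 with median-of-ratios factors and -0.59 under TPM. The remaining alternatives with a call were the filter at 5 FPKM and leaving out WT replicate 3. DREB2C had 0.9696, 0.827 and 0.603 FPKM in transgenic samples, against 1.99, 2.17 and 1.84 FPKM in WT samples, and was called lower (-0.74 ± 0.19, adjusted p = 0.0117). DREB2B was not called (-0.10 ± 0.21). In clade A-1, DDF2, whose overexpression lowers gibberellin, rose by 0.95 (8.33 ± 1.47 FPKM in transgenic leaves and 3.82 ± 0.760 FPKM in WT leaves; SD, n = 3 each), and its close relative DDF1 by 0.36, although DDF1 was not called with quantile normalization (0.03) and turned to -0.02 under TPM. CBF4, a drought gene of the CBF clade, was not called (0.21 ± 0.21). Of clade A-4, neither TINY (0.62 ± 0.24, adjusted p = 0.0672) nor AT1G33760 (-0.09 ± 0.097) was called. TINY passed in 4 alternatives, among them quantile normalization (0.86), cyclic loess (0.84) and leaving out line 2. AT1G33760 was called lower with quantile normalization (-0.36), with cyclic loess (-0.34) and under TPM (-0.46).

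Apart from ERF12 and ERF11, 3 other pairs of the family are neighbours with no gene between them. ESE1, TDR1 and ERF1 lie in this order on chromosome 3, with gaps of 776 and 5452 bases, and their fold changes were 1.52 (not called), 2.94 and 1.13. ERF6 and ERF1A lie 5041 bases apart on chromosome 4 and rose by 0.86 and 0.41, the second not called with quantile normalization. In the annotation 11 family genes overlap another gene, 10 of them on the opposite strand, and 7 of the 11 were called. Whether counting used strand is not given in the sources used here, so values of ERF105, AT5G07580, ABR1, RRTF1, HRE1, ORA47, AT1G22810, CRF4, DREB2A and DREB2B may hold reads of the partner. For HRE1, at 2.96 to 3.58 FPKM in transgenic samples and 4.29 to 5.38 FPKM in WT samples, the overlapping AT1G72370 had 255 to 259 FPKM in transgenic samples and 217 to 228 FPKM in WT samples. For ERF105 and AT5G07580 the partners AT5G51180 and AT5G07590 were far lower, at 16.4 to 20.3 and 4.45 to 6.53 FPKM in transgenic samples, against 16.4 to 21.7 and 5.68 to 6.76 FPKM in WT samples, and were not called.

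Genes known to act before and after these factors were read from lists chosen with earlier results of these data known. Of 11 ethylene signalling genes tested, 2 rose and 3 fell: EBF1, which removes EIN3, rose by 0.71, and the receptor genes ETR2 and ERS1 fell by 0.61 and 0.49. The 45.5% called was near the 40.7% of all genes. Under every other scaling only 1 of the 11 was called higher. The number called lower ran from 3 with median-of-ratios factors to 7 under TPM, where 48.9% of all genes were called lower. Of 5 GCC-box targets tested, none rose and 2 fell under all 5 scalings, the chitinase gene CHI-B by 1.19 and the defensin gene PDF1.3 by 0.71. The defensin genes are near-identical, and PDF1.2A averaged 18.0 ± 2.203 FPKM in transgenic leaves and 16.96 ± 5.48 FPKM in WT leaves (SD, n = 3 each) and was not called. Of 7 EAR corepressor genes, TPL, which encodes TOPLESS, fell by 0.43 and TPR4 rose by 0.39, a rise not called under TPM. The share called in either direction was 40.0% for the GCC-box targets and 28.6% for the corepressors, neither above the 40.7% of all genes.

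Of 6 tested genes of the pathway that breaks down the hypoxia-related ERFs, none rose, and the cysteine oxidase gene PCO1 and ACBP2, which holds RAP2.12 at the membrane, fell by 0.52 and 0.43, calls lost with quantile normalization. Of 6 low-oxygen targets tested, ALAAT1, alanine aminotransferase, rose by 0.79 and LBD41 fell by 0.42, while ADH1, alcohol dehydrogenase, averaged 7.02 ± 1.41 FPKM in transgenic leaves and 7.20 ± 0.635 FPKM in WT leaves (SD, n = 3 each) and was not called. Of 5 genes around DREB2A, its target HSFA3 rose by 0.91 and its repressor GRF7 fell by 0.71, the fall not called with quantile normalization. The share called was 33.3% for the breakdown pathway, 33.3% for the low-oxygen targets and 40.0% for the genes around DREB2A. None of these was above the 40.7% of all genes. All 6 DRE targets tested were called higher, against 25.0% of all genes. Their median was 1.00 on the log2 scale, against 0.03 over all genes. Their summed level was 9076 to 9388 FPKM in the transgenic samples, against 4811 to 5441 FPKM in the WT samples. Fold changes of these targets ran from 0.66 to 1.46 as deposited, 0.19 to 1.10 with quantile normalization and 0.12 to 1.09 with cyclic loess. With cyclic loess 5 of 6 stayed called. DREB2A was not called higher in any setting and was called lower under every scaling but the deposited one. Of the 18 DREBs tested, 8 rose and 3 fell as deposited, and CBF1 to CBF3 were not analysed here. Which factors act on these targets in the samples was not tested, and transcript levels do not measure protein activity. The median fold changes of the other lists were nearer to that of all genes, at 0.08 for ethylene signalling, 0.12 for GCC-box targets, 0.02 for corepressors, -0.21 for the breakdown pathway, -0.09 for low-oxygen targets and 0.08 for the genes around DREB2A.

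The number of family genes called lower depended on the scaling of the samples. As deposited 25 rose and 11 fell, with quantile normalization 24 and 15, with cyclic loess 24 and 15, with median-of-ratios factors 25 and 12, and under TPM 20 and 17. Over all genes, the calls as deposited were 25.0% higher and 15.7% lower, with quantile normalization 19.2% and 20.1%, with cyclic loess 19.2% and 19.9%, with median-of-ratios factors 21.8% and 19.0%, and under TPM 11.2% and 48.9%. TPM put the median of all genes at -0.31. Relative to the median of all genes, the EAR repressors had a median of 0.88 as deposited, 0.84 under TPM and 0.62 with quantile normalization, and the hypoxia-related ERFs had -0.28, -0.27 and -0.36. The 6 rises and 1 fall among EAR repressors and the 4 falls among activators were called under all 5 scalings, whereas the rises among activators numbered 7 as deposited and 5 under quantile normalization, cyclic loess and TPM.

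**Figure D4:**
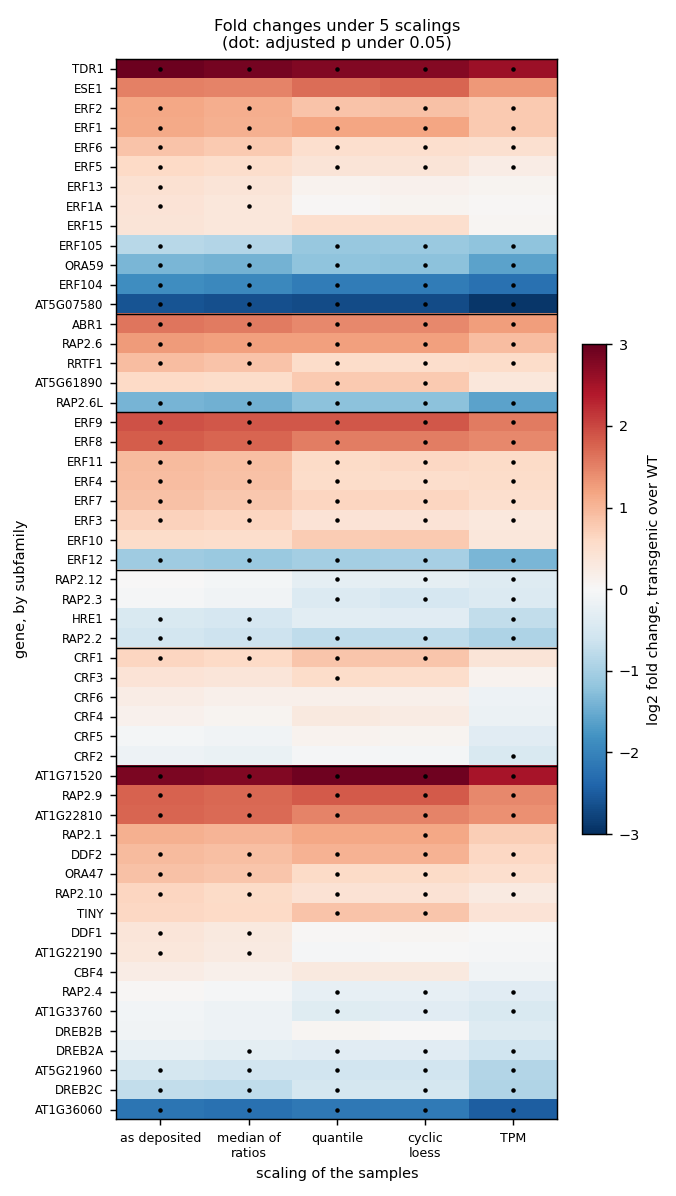
Fold changes (colour, log2, transgenic over WT) of the 54 genes tested, in rows by subfamily, under 5 scalings in columns, with a dot where adjusted p is under 0.05. Of the 36 genes called on the values as deposited, 31 were also called with quantile normalization and 31 under TPM, and AT1G22190 turns negative under quantile normalization, cyclic loess and TPM, RAP2.12 and RAP2.4 under these and median-of-ratios factors, and DDF1, CRF4, CRF6 and CBF4 under TPM. CRF5 and DREB2B turn positive under quantile normalization and cyclic loess.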

How the data were processed

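RNA from leaves of 3 transgenic and 3 WT samples was sequenced after oligo(dT) selection, per the labels' protocols. The authors deposited FPKM values in 1 table with a column per sample. TopHat2, DESeq and the TAIR10 build are named, per the submitters' processing notes, without versions or roles. The counting program, annotation and use of strand were not given in the sources used here. No read numbers are known, so precision rests on the 3 samples of each group.

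Log2(FPKM + 1) of the 17093 genes whose mean reached 1 FPKM was fitted with limma 3.58.1 in R 4.3.3 (mean-variance trend, no covariate), after a test on simulated data, and p-values were adjusted over all genes. Genes called with a log2 fold change of at least 1, and the 3 greatest per subfamily, are given by sample. From each other list at most 3 called genes are named, and some uncalled ones (PDF1.2A, ADH1) were chosen after their values were seen. The members and lists were chosen with earlier results of these data known. Loci were matched to the TAIR10.1 annotation (59 of 59), and near-identical transcripts were found with blastn 2.17.0. Alternatives were 5 scalings in all, another pseudocount (0.1), other filters (none, 5 FPKM), no trend, a replicate block and leaving out each sample. CBF1 to CBF3, DEWAX and loci outside the table were not analysed here.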

Additional observations from a re-analysis of the deposited data

How the results depend on the processing

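Of the 36 family genes called, 28 were called in every alternative, and ERF1A, ERF13, DDF1, AT1G22190, ERF12, HRE1, CRF1 and AT5G21960 lost the call in at least 1. Of 18 genes not called, 14 passed in at least 1. Under TPM 17 family genes were called lower, against 11 as deposited, and 10270 of all genes were called. Among genes called before or after the change, directions turned with quantile normalization for RAP2.12 (-0.27), RAP2.4 (-0.25) and AT1G22190 (-0.041), under TPM for RAP2.12 (-0.38), RAP2.4 (-0.34), AT1G22190 (-0.044) and DDF1 (-0.018), and with cyclic loess, chosen after seeing the data, for RAP2.12 (-0.26), RAP2.4 (-0.24) and AT1G22190 (-0.012). The cause was not tested. Without a call in either, RAP2.12 (-0.06) and RAP2.4 (-0.03) turned with median-of-ratios factors, CRF4 (-0.17), CRF6 (-0.14) and CBF4 (-0.12) under TPM, and CRF5 and DREB2B with quantile normalization (0.11 and 0.05) and cyclic loess (0.07 and 0.02). Leaving out 1 sample at a time gave 24 to 27 family genes higher and 9 to 11 lower, and 5889 to 6431 of all genes called. Same-numbered samples showed no clear shared deviation (correlations across genes -0.04, 0.05 and -0.02), and line 1 with WT replicate 3 reached 0.09. With 3 samples per group, these values cannot tell whether the numbers pair the samples. With a replicate block 27 family genes were higher, 10 lower and 6706 of all genes called. FPKM without read numbers give no counting error, so genes near 1 FPKM are the least sure.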
